A study of Saccharomyces cerevisiae CEN.PK113-7D with 6 samples.

Results

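The genes described here encode the heat shock proteins of 70 kDa class (Hsp70) of budding yeast and their larger relatives of the Hsp110 class, which act as exchange factors. They were the probe sets annotated to SSA1, SSA2, SSA3, SSA4, SSB1, SSB2, SSE1, SSE2, SSC1 and KAR2, with the brightest probe set standing for a gene that had several. All 10 names were matched by their standard symbol, among 5449 S. cerevisiae genes measured in all. SSB1 and SSC1 are also older names of unrelated genes, SBP1 and PMR1, which were not taken. RNA came from the wild-type laboratory strain CEN.PK113-7D, a haploid Saccharomyces cerevisiae used in physiology, grown on glucose either in a chemostat (replicates 4, 8 and 9) or in batch culture (replicates 1, 2 and 3). No allele, drug or heat treatment is named for either group, and 1 strain served both. In a chemostat, inflow of medium and outflow of cells fix the growth rate, whereas a batch culture grows on the medium it started with. The labels place sampling at steady state; they name neither the feed rate, nor the nutrient that limited growth, nor how far the batch cultures had grown. Whether the replicates were separate cultures is likewise not stated, and the p-values below cover the spread among the samples as they are, some of which may be technical.

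An Hsp70 binds short hydrophobic stretches of unfolded protein and holds them while ATP is hydrolysed. J-proteins (Hsp40) deliver clients and trigger hydrolysis, and exchange factors remove ADP so that the client is released. Yeast keeps separate Hsp70s in the cytosol (Ssa), on ribosomes (Ssb), in mitochondria (Ssc1) and in the endoplasmic reticulum (Kar2). In heat shock, the heat shock factor Hsf1 raises many of the cytosolic genes, and Msn2 and Msn4 act on several of them in general stress.

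Each value is a signal on a log2 scale for 1 probe set on 1 array, as the authors deposited it. Changes are chemostat minus batch, with n = 3 arrays per group unless replicates are said to be left out. Adjusted p-values are from limma with Benjamini-Hochberg adjustment over all 5449 genes, with a threshold of 0.05. The arrays parted by cultivation mode, with Pearson correlations across genes of 0.995 to 0.999 within chemostat, 0.994 to 0.997 within batch and 0.815 to 0.853 across groups; genes are not independent replicates. Array medians over all genes were nearly equal, at 7.95 to 7.97. Probe sets for the fission yeast S. pombe stood for background, and their 95th percentile was 5.93. All 5 markers of mating type a lay above it in both groups, and 4 of them were lower in chemostat, by -2.13 for STE2, -1.56 for BAR1, -1.33 for MFA2 and -1.14 for STE6. Of the 3 alpha-cell markers, STE3 was above background in both groups (7.13 in chemostat and 6.60 in batch), MF(ALPHA)1 was above it in chemostat only (6.55 in chemostat and 5.60 in batch), and MF(ALPHA)2 was below it in both. Over 10 control transcripts probe sets at the 3' end were brighter than those at the 5' end by 0.171 ± 0.011 in chemostat and by 0.249 ± 0.052 in batch (SD; p = 0.1 in a two-sided exact permutation test, which cannot go lower with 3 arrays against 3). Over the 8 control transcripts that are not ribosomal RNA the excess was 0.633 ± 0.006 in chemostat and 0.622 ± 0.029 in batch (two-sided exact permutation p = 0.5). The part of RNA quality in the results below was not tested.

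The Hsp70 genes changed in both directions, also within the Ssa class. SSA1, SSA3, SSA4 and SSE2 were higher in chemostat, by 3.60-fold for SSA1, 32.6-fold for SSA3, 6.10-fold for SSA4 and 9.76-fold for SSE2. SSA2, SSB1, SSB2 and KAR2 were lower, and SSE1 and SSC1 did not pass. Thus 4 of 10 passed as higher, where 33.6% of all genes did, and 4 of 10 passed as lower, where 44.8% of all genes did. In either direction 8 of 10 passed, against 78.4% of all genes, so the share that changed was near the background. All 4 rises exceeded 2-fold, a size reached by 8.18% of all genes. In limma's treat, which requires more than a 1.5-fold change, the 4 rises passed (11.0% of all genes) and SSA2 alone passed as lower (10.4% of all genes). The arrays of the groups did not overlap for 7 of 10 genes, against 81.7% of all genes. The median change was 0.13 for the 10 genes and -0.06 for all genes. The arrays hold RNA of whole cultures, so a lower level in each cell and a smaller share of cells that express a gene cannot be told apart.

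**Figure D1:**
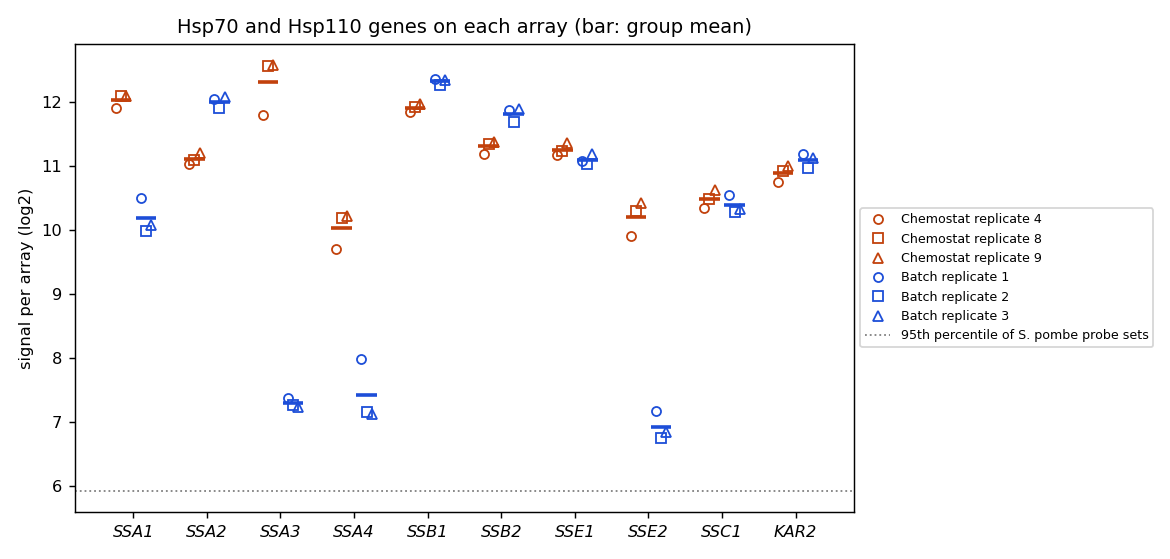
Signal of each Hsp70 and Hsp110 gene on each array (vertical axis, log2; chemostat left and batch right within each gene; bars are group means and the dotted line is the S. pombe background level, 5.93). The chemostat arrays of SSA3 lie at 11.80 to 12.58, above batch arrays at 7.23 to 7.38, whereas SSA2 has its chemostat arrays at 11.03 to 11.21, below batch arrays at 11.91 to 12.07.

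Among the 4 cytosolic Ssa genes, 3 rose and 1 fell. SSA3, an Hsp70 gene that is little expressed in growing cells and induced by stress, had signals of 11.80, 12.56 and 12.58 in chemostat replicates 4, 8 and 9, against 7.38, 7.26 and 7.23 in batch replicates 1, 2 and 3. The lowest chemostat array lay 4.42 above the highest batch array. The change of 5.02 (SE 0.19, adjusted p = 1.29e-07) ranked 21 among the rises of 5449 genes. SSA4, the other stress-induced Ssa gene, had 9.70, 10.19 and 10.22 in chemostat, against 7.99, 7.15 and 7.13 in batch. Batch replicate 1 stood above the other batch arrays, and the groups stayed 1.71 apart. SSA4 rose by 2.61 (SE 0.24, adjusted p = 1.52e-05), and by 2.89 without batch replicate 1.

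SSA1 and SSA2 encode the Ssa proteins of normal growth, are nearly identical in sequence, and moved in opposite directions. SSA1, which heat also induces, had 11.91, 12.10 and 12.10 in chemostat, against 10.50, 9.98 and 10.08 in batch. It rose by 1.85 (SE 0.13, adjusted p = 2.81e-06), with every chemostat array at least 1.41 above every batch array. SSA2, described as constitutive, had 11.03, 11.10 and 11.21 in chemostat, against 12.05, 11.91 and 12.07 in batch. It fell by 0.90 on the log2 scale (SE 0.063, adjusted p = 3.31e-06), and the lowest batch array was 0.70 above the highest chemostat array. The falls larger than that of SSA2 made up 6.35% of all genes. Both probe sets carry the plain suffix, without a mark for shared probes; how far either responds to the transcript of the other was not tested.

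The ribosome-associated Hsp70 genes both fell. Ssb proteins bind nascent chains at the exit of the ribosome, and SSB1 and SSB2 are nearly identical. SSB1 had 11.84, 11.92 and 11.98 in chemostat, against 12.36, 12.28 and 12.34 in batch, and fell by 0.41 (SE 0.049, adjusted p = 8.17e-05). Its probe set carries the suffix s, which marks probes shared among transcripts, so its signal may hold both genes. SSB2 had 11.19, 11.35 and 11.38 in chemostat, against 11.88, 11.68 and 11.90 in batch, and fell by 0.51 (SE 0.074, adjusted p = 0.000259). The groups did not overlap for either gene. A dimmer second probe set of SSB1, without the shared mark, read 11.24, 11.25 and 11.32 in chemostat, against 12.25, 12.14 and 12.26 in batch. There the fall was -0.94 (SE 0.048, adjusted p = 6.13e-07), a larger change than on the shared probe set. For comparison, 120 of 122 genes of cytosolic ribosomal proteins (symbols RPL and RPS) were lower, with a median change of -0.59 and 2 not passing. Of all genes 44.8% were lower, and their median change was -0.06.

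The Hsp110 genes parted. Sse1 and Sse2 are the main exchange factors of the cytosolic Hsp70s, with Sse1 the form of normal growth. SSE2 had 9.90, 10.30 and 10.42 in chemostat, against 7.17, 6.75 and 6.84 in batch. It rose by 3.29 (SE 0.15, adjusted p = 3.12e-07), the rise ranking 83 among all genes, with the groups 2.73 apart. SSE1 had 11.17, 11.23 and 11.36 in chemostat, against 11.08, 11.03 and 11.19 in batch, so that the ranges overlapped. Its difference of 0.16 (95% confidence interval 0.01 to 0.30, adjusted p = 0.0509) lay just outside the threshold and passed under 9 of 18 other settings, with adjusted p from 0.023 to 1.

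The organelle Hsp70 genes SSC1 and KAR2 differed little between the modes. SSC1, the Hsp70 of the mitochondrial matrix and of the protein import motor, had 10.35, 10.48 and 10.63 in chemostat, against 10.55, 10.28 and 10.33 in batch. The ranges overlapped, and the difference was 0.10 (95% confidence interval -0.11 to 0.31, adjusted p = 0.341). Without batch replicate 1 alone it was 0.18 (adjusted p = 0.0724), and without chemostat replicate 4 alone 0.17 (adjusted p = 0.119). Without both it was 0.25 and passed (adjusted p = 0.00624, 2 arrays per group). That setting was chosen after the values were seen. These were the highest batch and the lowest chemostat array of SSC1, so leaving them out had to raise the difference. KAR2, the Hsp70 of the endoplasmic reticulum that pulls proteins into its lumen and is raised by the unfolded protein response, had 10.75, 10.93 and 11.01 in chemostat, against 11.19, 10.97 and 11.13 in batch. Chemostat replicate 9 lay above batch replicate 2. The fall of -0.20 (SE 0.079, adjusted p = 0.0441) passed narrowly. It did not pass under 12 of 18 other settings (adjusted p from 0.0193 to 1 over all 18), including -0.16 without batch replicate 1, -0.19 without batch replicate 3, -0.13 without chemostat replicate 4 and -0.22 without chemostat replicate 8.

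Paralogue pairs were compared through the difference between their probe sets on each array, since a shift of that difference shows unequal change. SSA2 minus SSA1 was -0.88, -1.001 and -0.89 in chemostat, against 1.55, 1.92 and 1.997 in batch, so SSA1 gained on SSA2 by 6.72-fold. SSA4 minus SSA3 was -2.11, -2.38 and -2.36 in chemostat, against 0.61, -0.11 and -0.10 in batch. SSA3 thus rose more than SSA4, by 5.33-fold. SSE2 minus SSE1 was -1.27, -0.93 and -0.95 in chemostat, against -3.91, -4.28 and -4.35 in batch, so SSE2 gained by 8.76-fold. In these 3 pairs the groups did not overlap (two-sided exact permutation p = 0.1 for each, the smallest possible, and 0.133 after Benjamini-Hochberg adjustment over 4 pairs). How often other pairs of genes part in this way was not determined. For single genes the groups did not overlap in 81.7% of cases. SSB2 minus SSB1 was -0.65, -0.58 and -0.60 in chemostat, against -0.48, -0.59 and -0.44 in batch, with overlapping groups (two-sided exact permutation p = 0.2). With the other probe set of SSB1, the shift of that pair was 0.43 in place of -0.10, so its direction rested on the probe set.

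**Figure D2:**
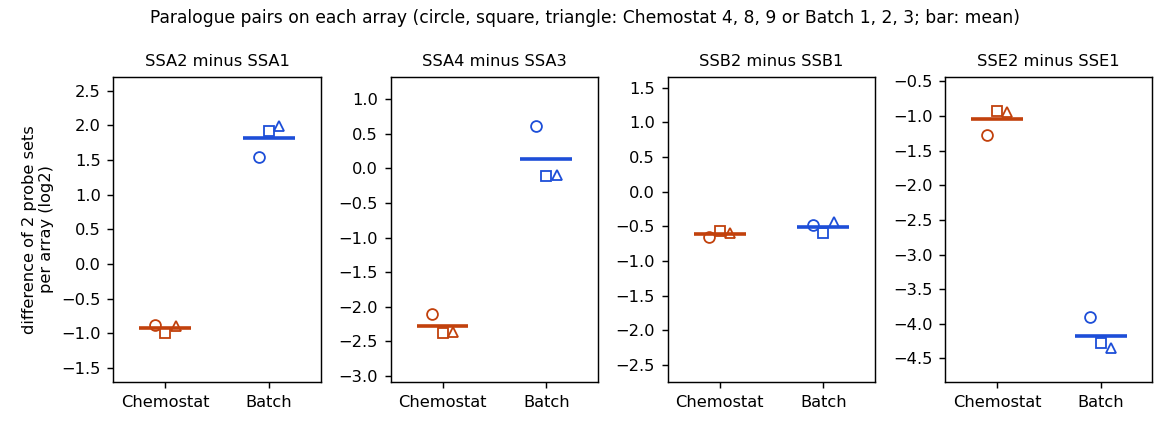
Difference between the log2 signals of the 2 genes of a pair on each array (vertical axis; chemostat left, batch right; bars are group means, and all panels span the same number of log2 units). The mean of SSA2 minus SSA1 is -0.92 in chemostat and 1.82 in batch, that of SSA4 minus SSA3 is -2.28 in chemostat and 0.14 in batch, that of SSB2 minus SSB1 is -0.61 in chemostat and -0.50 in batch, and that of SSE2 minus SSE1 is -1.05 in chemostat and -4.18 in batch.

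Of 13 J-proteins of the cytosol and nucleus, 4 were higher, 6 lower and 3 did not pass, with a median change of -0.16. These counts were near the shares over all genes, 33.6% higher and 44.8% lower. APJ1, a J-protein of the nucleus, rose by 1.18 (SE 0.052, adjusted p = 2.90e-07), with 8.29 ± 0.09 in chemostat and 7.11 ± 0.04 in batch (SD). SIS1, the essential J-protein that works with Ssa on misfolded proteins, rose by 0.96 (11.14 ± 0.05 in chemostat and 10.18 ± 0.05 in batch). YDJ1, the most general J-protein of the cytosol, passed with only 0.16 (adjusted p = 0.0386) and overlapping groups. ZUO1 fell by 1.06 (10.09 ± 0.06 in chemostat and 11.15 ± 0.12 in batch). Of 4 exchange factors outside the Hsp110 class, FES1 of the cytosol rose by 0.90 (SE 0.048, adjusted p = 7.45e-07). The other 3, SNL1 at the nuclear envelope and endoplasmic reticulum, SIL1 of the endoplasmic reticulum and MGE1 of mitochondria, fell by 0.89 for SNL1, by 0.61 for SIL1 and by 0.73 for MGE1, where 44.8% of all genes fell.

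The partners of Ssb were lower without exception, 5 of 5. Zuo1 and Ssz1 form the ribosome-associated complex that activates Ssb. SSZ1, itself a divergent Hsp70, fell by 0.87 (SE 0.042, adjusted p = 4.58e-07). The subunits of the nascent polypeptide-associated complex fell by 0.46 for EGD2, by 0.32 for EGD1 and by 0.35 for BTT1. The same direction, lower, holds for 44.8% of all genes. The fall of SSB1 on either probe set lay within the range of these partners, -1.06 to -0.32.

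Among partners of Ssc1 in mitochondria, 3 of 9 were higher and 6 lower, where 33.6% of all genes were higher and 44.8% lower, and the median change was -0.17. PAM18, the J-protein of the import motor, fell by 0.99 (8.07 ± 0.01 in chemostat and 9.07 ± 0.04 in batch), and its companion PAM16 fell by 0.62. MGE1, the exchange factor of Ssc1, also fell, as given above. JID1, another J-protein of mitochondria, rose by 0.96 (7.18 ± 0.03 in chemostat and 6.22 ± 0.01 in batch). MDJ1, the J-protein for folding in the matrix, rose by 0.47 (SE 0.046, adjusted p = 2.56e-05).

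Partners of Kar2 fell in 5 of 6 cases, where 44.8% of all genes fell, with a median change of -0.59 and ERJ5 not passing at -0.09 (adjusted p = 0.177). SCJ1, a J-protein of the lumen, fell by 1.23 (8.07 ± 0.03 in chemostat and 9.31 ± 0.11 in batch), and SEC63, the J-protein of the translocation channel, fell by 1.03 (SE 0.080, adjusted p = 6.04e-06). SIL1 fell as given above, LHS1, the Hsp110-type exchange factor of Kar2, fell by 0.57, and JEM1, another J-protein of that compartment, fell by 0.56. Of 8 folding enzymes of the endoplasmic reticulum, 6 were lower (44.8% of all genes), 1 was higher (33.6% of all genes) and 1 did not pass. EUG1, a protein disulfide isomerase, fell by 0.86 (SE 0.045, adjusted p = 6.42e-07) and ERO1, the oxidase that supplies disulfides, fell by 0.60. MPD2 was the member that rose, by 0.45. KAR2, at -0.20, changed less than the 5 partners that passed.

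Hsf1 targets outside the Hsp70 class were mostly higher. Of 16 genes, 14 passed as higher and the other 2 did not pass, against 33.6% higher among all genes, and the median change was 0.89. HSP42, a small heat shock protein, rose by 3.09 (11.10 ± 0.17 in chemostat and 8.01 ± 0.38 in batch), HSP104, the disaggregase that works with Ssa, rose by 2.16 (SE 0.13, adjusted p = 1.46e-06), and BTN2, which sorts misfolded proteins, rose by 2.01. The list also holds YDJ1, SIS1, FES1 and MDJ1, which were counted above. The 2 genes that did not pass were HCH1 (0.01, adjusted p = 0.849) and CUR1 (0.17, adjusted p = 0.0615). In chemostat replicate 4, 13 of these 16 genes had their lowest chemostat value, against 41.0% of all genes. Batch replicate 1 was the highest batch array for 6 of the 16, against 30.6% of all genes.

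Of 4 other Hsp70 genes, 1 was higher and 2 lower, SSZ1 and LHS1 as given above, and of 6 regulators 2 were higher and 3 lower, where 33.6% of all genes were higher and 44.8% lower. ECM10, a mitochondrial Hsp70 close to SSC1, rose by 0.39 (6.57 ± 0.11 in chemostat and 6.17 ± 0.04 in batch) and no longer passed after quantile normalization. SSQ1, the mitochondrial Hsp70 of iron-sulfur cluster assembly, did not pass (-0.10, adjusted p = 0.067). HSF1 rose by 0.43 (8.18 ± 0.02 in chemostat and 7.75 ± 0.06 in batch). MSN2 did not pass (0.10, adjusted p = 0.0712), and MSN4 fell by 0.40 (6.76 ± 0.15 in chemostat and 7.15 ± 0.11 in batch). SKN7 fell by 0.16. HAC1, whose spliced messenger encodes the activator of the unfolded protein response, fell by 0.83 (SE 0.056, adjusted p = 2.74e-06), and the sensor IRE1 rose by 0.25; these probe sets do not tell spliced from unspliced HAC1 messenger.

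**Figure D3:**
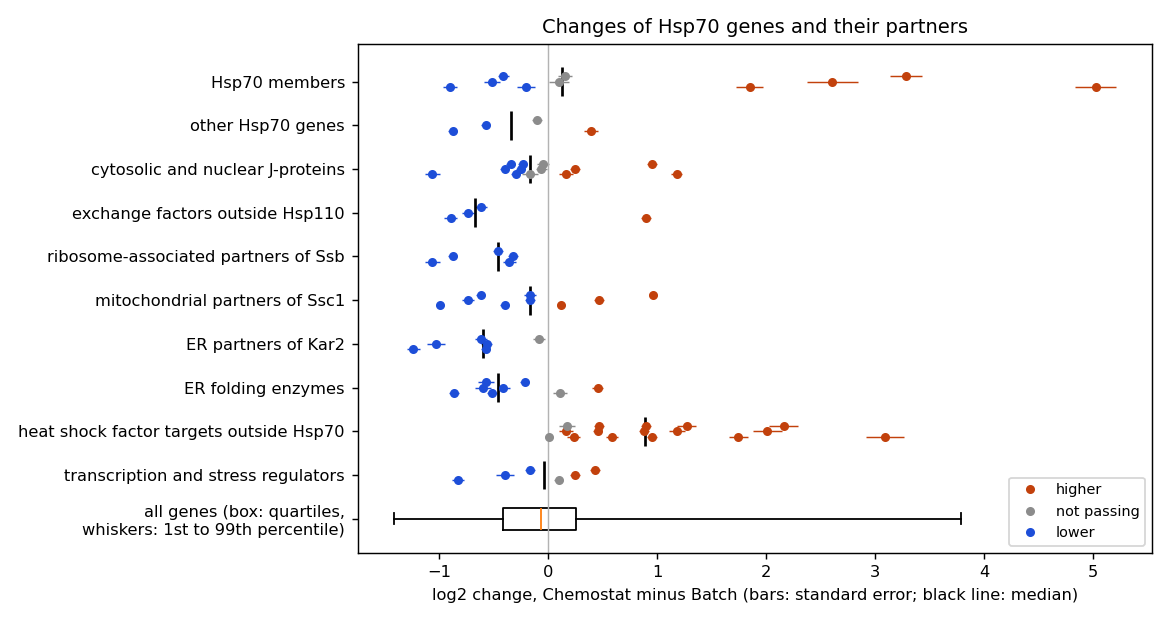
Log2 change, chemostat minus batch (horizontal axis), of each Hsp70 gene and of its partners by list, with standard errors; black lines are list medians and the box shows all genes. The Hsp70 genes run from -0.90 to 5.02, partners of Ssb lie wholly below 0 and the heat shock factor targets have a median of 0.89.

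Single arrays departed from their group in a way that the Hsp70 genes shared. All 10 had their lowest chemostat signal in replicate 4, as did 41.0% of all genes, 62.3% of the 446 genes that rose by at least 2-fold and 27.2% of the 600 genes with a mean signal above 10. The gap to the mean of replicates 8 and 9 was -0.77 for SSA3, -0.51 for SSA4, -0.46 for SSE2 and -0.19 for SSA1, and from -0.22 to -0.11 for the 6 others. Gaps as low as that of SSA3 were found in 0.202% of genes. Replicate 1 was the highest batch array for 7 of 10, against 30.6% of all genes and 68.2% of those that rose by at least 2-fold. Its excess over replicates 2 and 3 was 0.85 for SSA4, 0.47 for SSA1, 0.37 for SSE2 and 0.14 for SSA3. An excess as large as that of SSA4 was found in 0.349% of genes. Both arrays therefore lay towards the other group for the 4 genes that rose. For SSA2, SSB1, SSB2 and KAR2, which fell, both gaps to the mean of the other replicates pointed away from the other group. The excess of batch replicate 1 was there from 0.05 for SSB1 to 0.14 for KAR2. Of all genes 25.3% had an excess at least as large as that of SSB1. For SSA2 and SSB2 batch replicate 1 was below batch replicate 3. KAR2 changed by -0.08 without both arrays and by -0.20 with them. Without both arrays the changes were 3.06 for SSA4, 5.33 for SSA3 and 3.56 for SSE2. In that fit 6 of 10 Hsp70 genes passed as higher and 3 as lower, where 1837 of 5449 genes passed as higher and 2462 as lower. The 6 included SSE1 and SSC1, which did not pass with all arrays. The source of these departures was not tested.

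**Figure D4:**
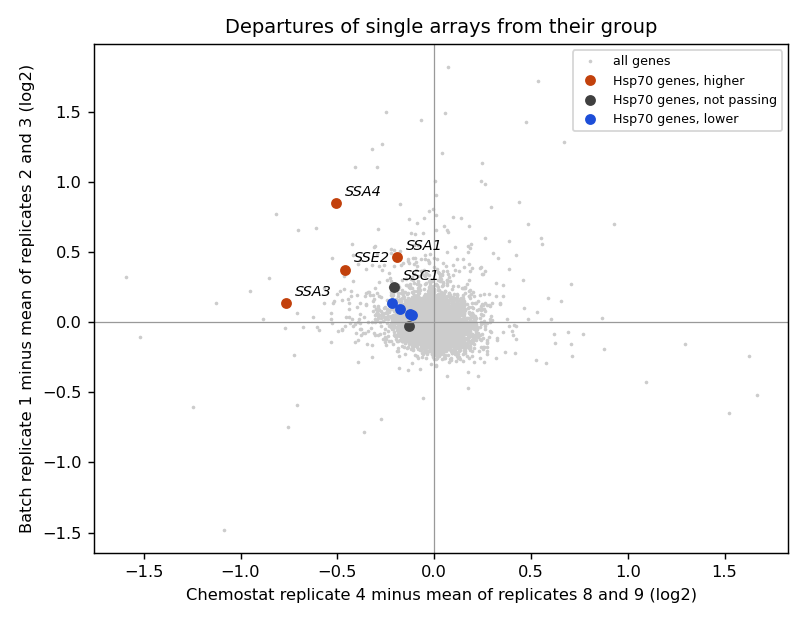
Departure of chemostat replicate 4 from the mean of replicates 8 and 9 (horizontal axis, log2) and of batch replicate 1 from the mean of replicates 2 and 3 (vertical axis, log2), for all genes in grey and the Hsp70 genes in colour. All 10 Hsp70 genes lie left of 0, from -0.77 to -0.11, and SSA4 lies highest at 0.85.

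The genes whose profiles over the 6 arrays were most like those of the Hsp70 genes were found by root mean square distance after each gene was centred on its own mean. For SSA3 the nearest was SHH3, a mitochondrial homologue of a succinate dehydrogenase subunit, at 0.044 log2 units, followed by SPG1 at 0.204 and FMP16 at 0.213. SHH3 shared with SSA3 the drop in chemostat replicate 4 (-0.71). For SSA4 the nearest were TDH1, a glyceraldehyde-3-phosphate dehydrogenase, at 0.131 and RTS3 at 0.133, and for SSE2 they were SOL4 at 0.112 and BDH2 at 0.129. SSA1 was closest to KNS1, a protein kinase, at 0.083. SSA2 was closest to PWP2, a ribosome assembly factor, at 0.020, SSB1 to GEA2 at 0.019, SSB2 to SVF1 at 0.034, SSE1 to BOI2 at 0.011, SSC1 to SRC1 at 0.048 and KAR2 to ICE2 at 0.029. Among the Hsp70 genes themselves, SSB1 and SSB2 were the closest pair, at 0.072, but SSB1 was read there by the probe set with shared probes. With its other probe set their distance was 0.222. That probe set was not compared with the remaining Hsp70 genes, so the closest pair with it was not determined. SSE1 and SSC1 were 0.107 apart.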

How the data were processed

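The authors deposited 1 log2 signal for every probe set on every array, computed with PLIER, per the submitters' processing notes. No source used here gives its version, background correction or between-array scaling. That the scale is log2 was inferred from the range of the values. Nothing was rescaled, and precision is limited by the number of arrays.

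Among 10928 probe sets, 5498 had 1 S. cerevisiae gene each and 1746 were assigned to S. pombe. Current symbols and gene order, and nothing else, came from the RefSeq table of assembly R64. The brightest probe set on average stood for a gene. The cultivation modes were compared by limma 3.58.1 under R 4.3.3 (two-sided moderated test from lmFit and eBayes, no covariate), and pairs by exact permutation in scipy 1.17.1. SEs and 95% confidence intervals are limma's. Of these steps, only the limma fit was tested on simulated data. No detection calls were used.

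The genes and lists were chosen with earlier results of these data known. The text names the 10 Hsp70 genes, up to 3 passing genes of each list by size of change and the strongest of opposite sign, genes of lists of at most 6, and for each Hsp70 gene up to 3 genes with the nearest profile. YDJ1, CUR1, HCH1, PAM16, MDJ1 and the chromosomal neighbours in the closing section were named after their values were seen. Alternatives were quantile normalization, centring on the gene or S. pombe median, array weights, a trended and robust variance, a filter on dim genes, all probe sets tested, the mean of probe sets, background subtraction with a floor of 16, an adjusted p under 0.01, treat at 1.5-fold and each replicate left out. Chosen after seeing the data were the other probe set of SSB1 and 2 arrays per group. The RNA-seq data of these extractions were not analysed here.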

Additional observations from a re-analysis of the deposited data

How the results depend on the processing

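Over the settings tried, the direction of change held for each of the 10 genes. Of 181 values of single genes, 157 kept their side of the threshold, 14 lost a call and 10 gained 1. The calls of SSA1, SSA2, SSA3, SSA4 and SSE2 held under all 18 settings; SSB1 and SSB2 lost theirs with treat alone, KAR2 lost its call under 12 and SSE1 gained 1 under 9. With treat at 1.5-fold, 1 gene was lower and 5 did not pass. The number not passing was 1 with gene median centring, with the dim filter, with the trended and robust variance and with 2 arrays per group. With each replicate left out in turn, 4 to 5 genes were higher, 3 to 4 lower and 2 to 3 did not pass. The difference of changes of SSB2 and SSB1 reversed to 0.43 with the other probe set of SSB1, which reads a different set of probes. SSE2 minus SSE1 moved to 3.60 after background subtraction, which stretches dim signals such as those of SSE2 in batch. The difference of changes without 1 replicate ranged from -2.88 to -2.66 for SSA2 minus SSA1, from -2.54 to -2.18 for SSA4 minus SSA3, from -0.15 to -0.07 for SSB2 minus SSB1 and from 3.05 to 3.27 for SSE2 minus SSE1. Of 198 counts over the partner lists, 183 stayed within 1.5 times, and 14 of the 15 that moved did so with treat. No paired analysis was possible because the replicate numbers of the groups do not overlap. A floor of the scale may compress changes of dim genes, which was not tested. After background subtraction the rises were 3.76 for SSE2, 5.39 for SSA3 and 2.92 for SSA4, against 3.29, 5.02 and 2.61 without it.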

Other observations

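The genes next to the 4 rising Hsp70 genes on the chromosome, in the order of the reference gene table, did not share the size of their rise. ERP2 and EFB1 flank SSA1 and fell by 1.26 for ERP2 and by 0.19 for EFB1. Beside SSA3, ILS1, the isoleucyl-tRNA synthetase, fell by 0.68. AAR2, also beside SSA3, was below the background level of 5.93 in both groups, with 5.53 ± 0.04 in chemostat and 5.40 ± 0.03 in batch (SD, n = 3). Beside SSA4, RPS8B, a ribosomal protein gene, fell by 0.77 and RTT105 rose by 0.18. PEX32 and NPL4, which flank SSE2, rose by 0.21 and by 0.44. Each of these changes passed in limma (adjusted p from 4.22e-07 to 0.0252, n = 3), and the largest rise among the 8 neighbours was 0.44, against 1.85 for SSA1, the smallest rise among the 4 Hsp70 genes. Beside SSB2, which fell, YNL208W rose by 1.43, with 11.52 ± 0.04 in chemostat and 10.09 ± 0.22 in batch.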
